A study of Mus musculus with 4 samples.

Results

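The transcripts described here encode collagens and the other main proteins of the extracellular matrix, together with the enzymes that make, cross-link and degrade them. The list held 50 genes, taken by symbol, and each gene was read from 1 probe set, the one of highest mean signal among those that name a single gene. Of these, 48 genes had such a probe set and all 48 passed the filter on dim probe sets, out of 12565 genes that passed it in all. Fbn1 and Loxl2 were not analysed here.

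Skeletal muscle fibres are wrapped in a basement membrane of type IV collagen, laminins, nidogens and perlecan. Around it lies an interstitial matrix of fibrillar collagens type I, III and V, type VI collagen microfibrils and small leucine-rich proteoglycans, which passes into the tendon at the fibre ends. Most of this matrix is made by fibroblasts, with tendon cells, endothelial cells and the fibres contributing, and its collagens need prolyl and lysyl hydroxylation, chaperoning, removal of propeptides and cross-linking before they become stable fibrils.

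The arrays compared the gastrocnemius of 4 conditions in male mice of a C57BL/6N and FVBN cross: FoxO1,3,4 knockout starved for 24 h, FoxO1,3,4 knockout fed ad libitum, control starved for 24 h and control fed ad libitum. All mice carried floxed alleles of the 3 forkhead transcription factor genes, and the control, called wild type in the sample labels, lacked the Cre recombinase. In the knockout, Cre was driven by the MLC1f promoter, which is active in fast (type II) fibres and not in slow fibres or in the connective tissue cells that make most matrix. RNA of 6 muscles from 3 mice was pooled in equal amounts, with 1 pool and 1 array per condition, so no difference below has a replicate check and no test was possible. The labels give no age.

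Values are MAS 5.0 signals, a brightness on a linear scale that was used as deposited. The median signal of all probe sets was 22.9 in starved and 23.8 in fed knockout muscle, and 26.0 in starved and 26.3 in fed control muscle. A gene is said to have risen or fallen when the ratio of signals reached 1.5-fold, a log2 change of 0.585. Without replicates, the one measure of error is how far probe sets for 1 gene disagree. That disagreement within a pair was scaled down to an SD per probe set, with pairs placed by the signal of the dimmer one. For a log2 change on starvation in knockout muscle, this SD was 0.69 at mean signals of 8.4 to 43.6. At mean signals of 337.6 to 17843.4 it was 0.16, and it contains no difference between mice. The knockout showed in Foxo4, with signals of 34.3 starved and 31.3 fed in knockout muscle against 291.3 starved and 296.9 fed in control muscle. Foxo1 was at 165.5 starved and 185.2 fed in knockout muscle, against 554.4 starved and 303.8 fed in control muscle. Foxo3 did not differ 1.5-fold on the probe set read, at 460.9 starved and 297.3 fed in knockout muscle and 477.8 starved and 250.1 fed in control muscle. By RT-PCR, the authors report less or no FoxO1, FoxO3 and FoxO4 transcript in knockout tibialis anterior. By immunoblot, they report less FoxO1 and FoxO3 protein in knockout gastrocnemius. The 6 fast muscle markers were bright, with summed signals of 88525.7 to 93920.7 on the 4 arrays, and none of them changed 1.5-fold on starvation in either genotype.

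The first comparison asked how matrix transcripts responded to 24 h without food in each genotype. In knockout muscle 17 of the 48 genes fell and 4 rose, where 9.45% of all genes fell and 7.36% rose. In control muscle 16 genes fell and 3 rose, where 14.2% of all genes fell and 9.21% rose. The falls were 1.53-fold to 2.68-fold in knockout muscle and 1.57-fold to 2.67-fold in control muscle. In both genotypes 15 matrix genes fell, which is 31.2% of them against 3.9% of all genes. The genes that rose in both were Lox, Ccn2 and Thbs1, where 2.63% of all genes did so. Starved signals lay below fed signals for 37 genes in knockout muscle and 40 in control muscle, and for 35 in both, where 57.8%, 60.1% and 41.3% of all genes did so. The median log2 change of the 48 genes was -0.27 in knockout and -0.35 in control muscle, beside -0.06 in knockout and -0.11 in control muscle over all genes. In pooled whole muscle, fewer cells of a matrix-producing type and less RNA per cell cannot be told apart.

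**Figure D1:**
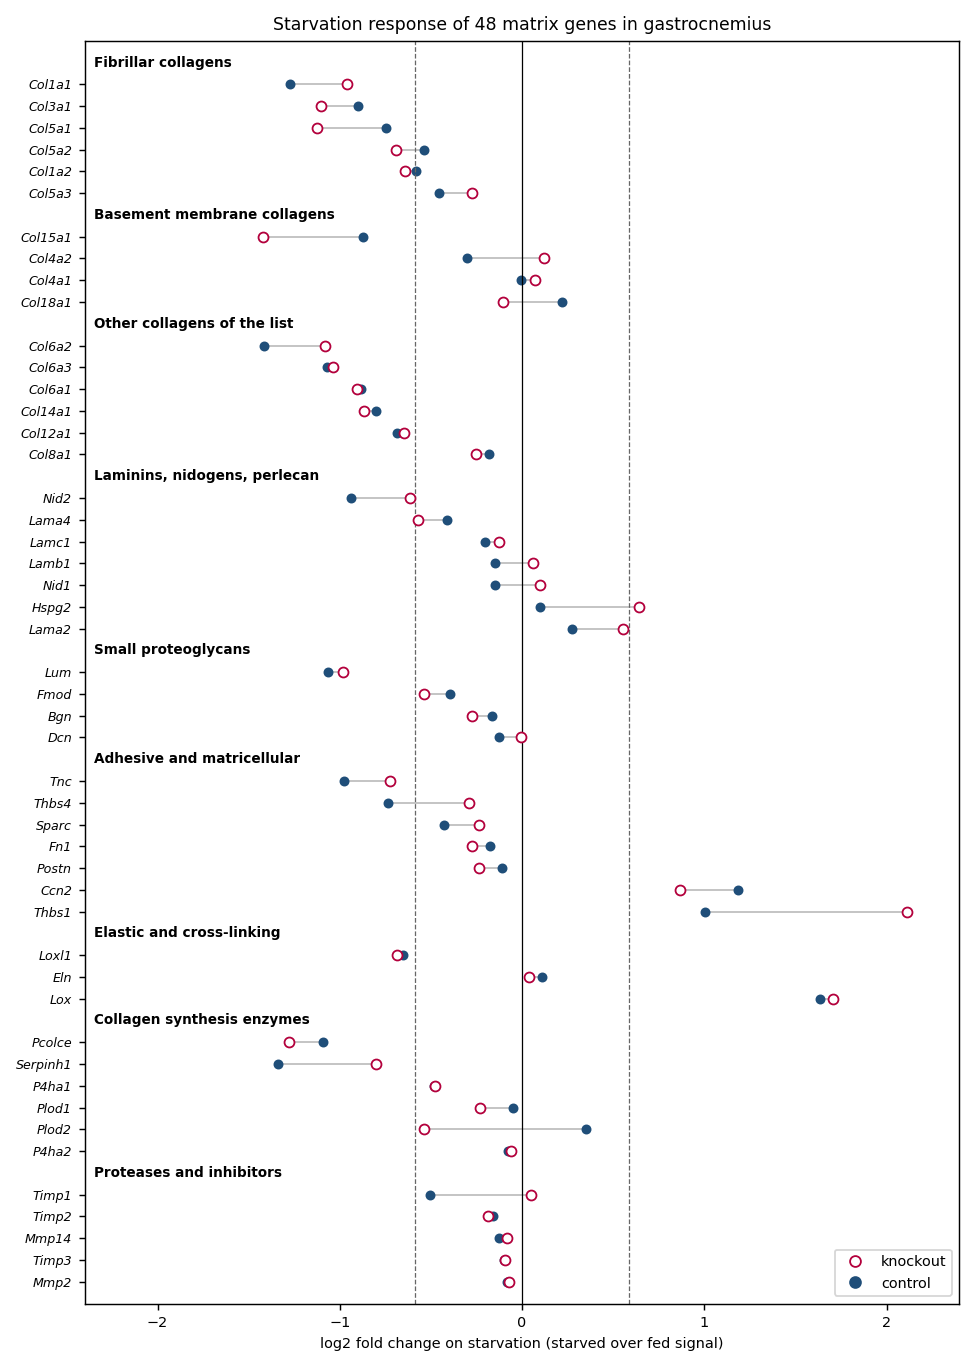
Log2 ratio of starved over fed signal (x axis) for each of the 48 matrix genes, grouped by role, with open circles for knockout and filled circles for control muscle, 1 array per condition. Dashed lines mark 1.5-fold. Most collagens lie to the left of the line in both genotypes, and Lox, Ccn2 and Thbs1 lie to the right of it.

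The collagens carried most of the decrease. Of 16 collagen genes, 11 fell in knockout muscle and 9 in control muscle, and the 9 were shared. Of the other 32 matrix genes, 6 fell in knockout and 7 in control muscle. The median log2 change was -0.78 in knockout and -0.72 in control muscle over the collagens, and -0.21 in knockout and -0.15 in control muscle over the rest. No collagen rose in either genotype. The signals of the 16 collagen probe sets summed to 11933.5 in starved and 19483.5 in fed knockout muscle, and to 13993.9 in starved and 22270.1 in fed control muscle.

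Among the 6 fibrillar collagens, 5 fell in knockout and 3 in control muscle. Col3a1, the chain of type III collagen, had signals of 2615.3 in starved and 5615.9 in fed knockout muscle, and 3377.6 in starved and 6296.2 in fed control muscle, log2 changes of -1.10 in knockout and -0.90 in control muscle. Both starved arrays lay below both fed arrays. Col1a1 and Col1a2 encode the chains of type I collagen, the main fibril of tendon and muscle connective tissue. Col1a1 was at 293.9 starved and 571.5 fed in knockout muscle, and at 265.0 starved and 641.0 fed in control muscle (log2 changes of -0.96 in knockout and -1.27 in control muscle). The Col1a2 signal was 3951.0 starved and 6162.4 fed in knockout muscle, and 4458.7 starved and 6672.5 fed in control muscle. Its log2 change of -0.64 in knockout muscle passed 1.5-fold, whereas that of -0.58 in control muscle lay just inside it. A second Col1a2 probe set read 659.7 starved and 2038.5 fed in knockout muscle and 832.6 starved and 2401.0 fed in control muscle, so that the size of the Col1a2 fall depends on the probe set and its direction does not. The second Col3a1 probe set likewise gave larger log2 changes, -1.75 in knockout and -1.73 in control muscle. Type V collagen regulates the diameter of type I fibrils. Its Col5a1 chain fell in both genotypes (log2 -1.13 in knockout and -0.75 in control muscle), Col5a2 fell in knockout muscle (-0.69 against -0.54 in control muscle), and Col5a3 had log2 changes of -0.27 in knockout and -0.46 in control muscle.

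The 3 type VI collagen genes measured, which encode the beaded microfibrils that link basement membrane to interstitial matrix, all fell in both genotypes. Col6a2 was at 430.5 starved and 911.2 fed in knockout muscle, and at 485.1 starved and 1294.5 fed in control muscle. Its 2.67-fold fall in control muscle was the largest of any matrix gene there on the probe sets read. A second Col6a2 probe set gave a log2 change of -1.11 in control muscle. Second probe sets of Col3a1 and Col1a2 gave -1.73 and -1.53 there. Col6a3 fell by 1.04 on the log2 scale in knockout and by 1.07 in control muscle, and Col6a1 fell by 0.90 in knockout and by 0.88 in control muscle. Col14a1 and Col12a1 encode collagens that sit on the surface of type I fibrils. Col14a1 had signals of 153.3 starved and 279.2 fed in knockout muscle and 179.0 starved and 312.0 fed in control muscle. Its second probe set gave log2 changes of -0.23 in knockout and -0.60 in control muscle, and with the mean over probe sets the knockout change, -0.55, was inside 1.5-fold. Col12a1 fell less (log2 -0.65 in knockout and -0.69 in control muscle), and its second, dim probe set did not fall in control muscle, with 41.5 starved and 27.7 fed. With the mean over probe sets neither change of Col12a1 reached 1.5-fold. Col8a1 had log2 changes of -0.25 in knockout and -0.18 in control muscle.

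The basement membrane genes differed from the interstitial collagens in their values. Col4a1, a chain of the type IV collagen network, had signals of 1633.6 starved and 1555.0 fed in knockout muscle, and 1948.4 starved and 1957.2 fed in control muscle, log2 changes of 0.07 in knockout and -0.01 in control muscle. Its partner chain Col4a2 had log2 changes of 0.12 in knockout and -0.30 in control muscle, and Col18a1, the source of endostatin, had -0.10 in knockout and 0.22 in control muscle. The second Col18a1 probe set had the opposite signs, 0.16 in knockout and -0.61 in control muscle, the latter past 1.5-fold. On the probe sets read, the exception was Col15a1, a collagen of the basement membrane zone, with signals of 48.3 starved and 129.3 fed in knockout muscle and 72.4 starved and 132.3 fed in control muscle. The Col15a1 fall of 2.68-fold was the largest of the 48 genes in knockout muscle on the probe sets read. Second probe sets of Col3a1 and Col1a2 gave larger falls there, log2 -1.75 and -1.63. Across these 4 collagens the median log2 change was -0.02 in knockout and -0.15 in control muscle, beside -0.82 in knockout and -0.66 in control muscle for the 6 fibrillar collagens.

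Laminins, nidogens and perlecan build the rest of the basement membrane, and of these 7 genes 1 fell in both genotypes. That gene was Nid2, at 113.9 starved and 174.4 fed in knockout muscle and 103.1 starved and 197.9 fed in control muscle. The Nid2 change in knockout muscle, -0.61 on the log2 scale, was inside 1.5-fold under all 3 array scalings and with an offset of 16, at -0.56 to -0.55. Its paralogue Nid1, which ties laminin to type IV collagen, was at 1879.5 starved and 1752.2 fed in knockout muscle and 2045.0 starved and 2264.8 fed in control muscle. Lama2 encodes the main laminin alpha chain of muscle fibres and had log2 changes of 0.55 in knockout and 0.28 in control muscle. Lamb1 and Lamc1, the beta and gamma chains, lay between -0.20 and 0.06 in both genotypes, and Lama4, an alpha chain of vessels, at -0.57 in knockout and -0.41 in control muscle. Hspg2, the gene of perlecan, rose 1.56-fold in knockout muscle, with 270.8 starved and 173.4 fed in knockout and 238.5 starved and 222.9 fed in control muscle. Its second probe set gave a log2 change of 0.04 in knockout muscle, so the rise rests on 1 probe set.

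**Figure D2:**
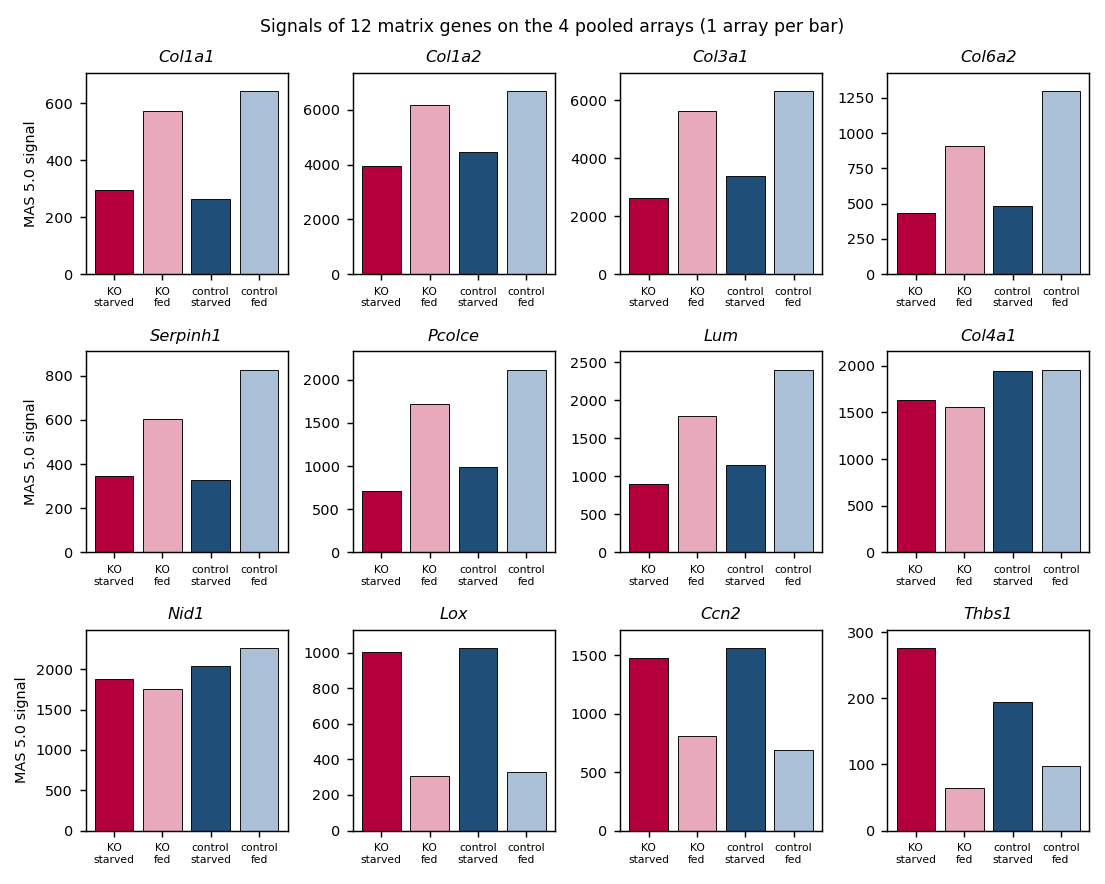
MAS 5.0 signal (y axis, linear, from 0) of 12 matrix genes in starved knockout, fed knockout, starved control and fed control muscle, 1 pooled array per bar and no error bar. Col1a1, Col1a2, Col3a1, Col6a2, Serpinh1, Pcolce and Lum are lower in both starved muscles, Col4a1 and Nid1 are nearly level, and Lox, Ccn2 and Thbs1 are higher in both starved muscles.

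Small leucine-rich proteoglycans bind collagen fibrils and set their spacing. Lum, the gene of lumican, was at 906.2 starved and 1792.7 fed in knockout muscle and 1150.2 starved and 2404.8 fed in control muscle. On the probe sets read, Lum was the 1 gene of these 4 that fell in both genotypes. Dcn, the gene of decorin, had signals of 12263.5 starved and 12288.5 fed in knockout muscle and 12463.7 starved and 13609.6 fed in control muscle, with log2 changes of -0.00 in knockout and -0.13 in control muscle. Fmod, the gene of fibromodulin, a proteoglycan abundant in tendon, had log2 changes of -0.54 in knockout and -0.40 in control muscle, and Bgn, the gene of biglycan, had -0.27 in knockout and -0.16 in control muscle. The second Fmod probe set passed 1.5-fold in both genotypes, at -0.63 in knockout and -0.62 in control muscle. Another Fmod probe set did so at -1.51 in knockout and -0.94 in control muscle, and its remaining ones did not pass in both.

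The adhesive and matricellular proteins, which regulate how cells attach to the matrix, moved in both directions. Thbs1, the gene of thrombospondin 1, an activator of latent TGF-beta, was at 276.3 starved and 63.8 fed in knockout muscle and at 195.0 starved and 97.4 fed in control muscle. These are ratios of 4.33 in knockout and 2.00 in control muscle. Ccn2, the gene of connective tissue growth factor, was at 1479.6 starved and 811.7 fed in knockout muscle and at 1565.0 starved and 689.4 fed in control muscle, a 1.82-fold rise in knockout and a 2.27-fold rise in control muscle. For both genes each starved array lay above each fed array. Tnc, the gene of tenascin-C, an adhesion-modulating protein of tendon and myotendinous junction, fell by 0.72 on the log2 scale in knockout and by 0.97 in control muscle. Thbs4, the gene of the tendon and muscle protein thrombospondin 4, fell in control muscle, with 1512.4 starved and 2519.9 fed, whereas knockout muscle was at 1926.7 starved and 2355.6 fed. Fn1, Sparc and Postn, which encode fibronectin, the collagen-binding protein osteonectin and periostin, had log2 changes between -0.43 and -0.11 in the 2 genotypes.

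The cross-linking enzymes of the lysyl oxidase family moved apart. Lox, which oxidizes lysines of collagen and elastin, was at 1003.8 starved and 307.2 fed in knockout muscle and at 1027.2 starved and 331.0 fed in control muscle, a 3.27-fold rise in knockout and a 3.10-fold rise in control muscle. A second Lox probe set read 510.2 starved and 128.4 fed in knockout muscle and 441.8 starved and 152.8 fed in control muscle. The related Loxl1, which acts on elastin, fell, with 311.5 starved and 501.2 fed in knockout muscle and 346.0 starved and 543.3 fed in control muscle. Eln, the elastin gene, lay at log2 changes of 0.04 in knockout and 0.11 in control muscle.

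Of the 6 genes for collagen synthesis, Serpinh1 and Pcolce fell in both genotypes. Serpinh1 encodes HSP47, the collagen chaperone of the endoplasmic reticulum, and was at 345.9 starved and 602.7 fed in knockout muscle and 326.9 starved and 827.8 fed in control muscle. Pcolce encodes the enhancer of the protease that removes the C-terminal propeptide of procollagen. Its signals were 710.1 starved and 1720.0 fed in knockout muscle and 994.2 starved and 2115.4 fed in control muscle, log2 changes of -1.28 in knockout and -1.09 in control muscle. The prolyl hydroxylase genes P4ha1 and P4ha2 had log2 changes of -0.48 and -0.06 in knockout muscle and -0.48 and -0.08 in control muscle, and the lysyl hydroxylase gene Plod1 had -0.23 in knockout and -0.05 in control muscle. None of the 5 proteases and inhibitors changed 1.5-fold in either genotype on the probe sets read. Mmp2, the gelatinase, had signals of 812.0 starved and 853.0 fed in knockout muscle and 970.0 starved and 1025.7 fed in control muscle. Mmp14, the membrane-bound activator of pro-Mmp2, and the inhibitors Timp2 and Timp3 had log2 changes between -0.19 and -0.08, and the dim Timp1 had 0.05 in knockout and -0.50 in control muscle. Some dimmer probe sets fell past 1.5-fold in control muscle only, at -0.70 and -0.92 for Timp2 and -0.64 for Mmp14. The other probe sets of Timp2 and Mmp14 past the filter did not.

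Several probe sets past the filter represented 33 of the 48 genes. In knockout muscle 14 of the genes that rose or fell had several, all 14 moved the same way on every one, and 9 passed 1.5-fold on every one. In control muscle 11 had several, 10 moved the same way on every one, with Col12a1 as the exception, and 9 passed 1.5-fold on every one.

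The second comparison asked whether the responses differed between the genotypes, as the knockout log2 change minus that of control. This difference was positive for 27 of the 48 genes, with a median of 0.01 beside 0.04 over all genes. On the probe sets read it lay within 1.5-fold for 46 genes, where 12.3% of all genes were above and 10.4% were below that limit. The exceptions were Thbs1 (1.11) and Plod2 (-0.89), 1 in each direction. Plod2, a lysyl hydroxylase that acts on the cross-linking ends of collagen, was dim, with 34.9 starved and 50.6 fed in knockout muscle and 44.2 starved and 34.7 fed in control muscle. Neither held on a second probe set. The other Thbs1 probe set read 96.1 starved and 46.5 fed in knockout muscle and 129.9 starved and 53.1 fed in control muscle, a difference of -0.24, and that of Plod2 gave 0.90. The next largest differences with a positive sign were those of Timp1 (0.55), Hspg2 (0.55) and Serpinh1 (0.54), and with a negative sign those of Col15a1 (-0.55) and Col5a1 (-0.38). No matrix gene changed 1.5-fold in opposite directions in the genotypes on the probe sets read, where 2.19% of all genes did. Other probe sets of some genes differed past 1.5-fold between the genotypes, such as that of Col18a1 (0.77).

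**Figure D3:**
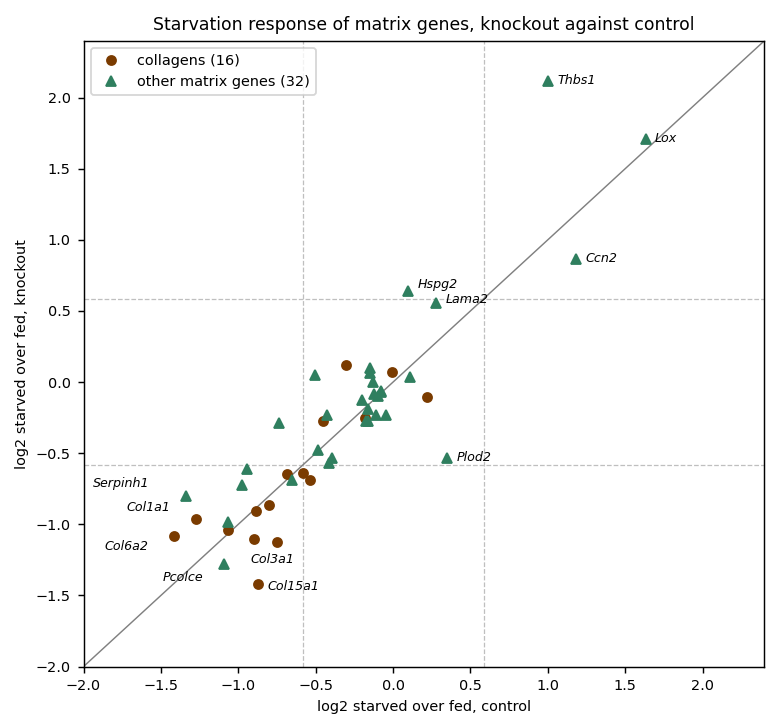
Log2 ratio of starved over fed signal in knockout muscle (y axis) against that in control muscle (x axis) for 48 matrix genes, with circles for collagens and triangles for the rest. The solid line marks equal response and dashed lines mark 1.5-fold. Most points lie near the solid line, and Thbs1 and Plod2 are the ones more than 1.5-fold from it.

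The third comparison set knockout against control muscle at the same feeding state. On the probe sets read, no matrix gene differed 1.5-fold in starved muscle, where 6.37% of all genes were higher and 14.5% were lower in the knockout. In fed muscle no matrix gene was higher and 1 was lower on those probe sets, where 3.37% of all genes were higher and 11.3% were lower. That gene was Thbs1, at 63.8 in fed knockout against 97.4 in fed control muscle, and on its other probe set 46.5 in fed knockout against 53.1 in fed control muscle. Some other probe sets, mostly dim, passed 1.5-fold in either direction. A brighter one of Fmod was at 285.6 in knockout against 818.7 in control muscle starved, and 814.2 against 1575.0 fed. The other Fmod probe sets stayed inside 1.5-fold. One of Timp2 was at 394.9 in fed knockout against 600.8 in fed control muscle. Knockout signals were lower for 39 genes in starved muscle, where 67.1% of all genes were lower, and for 44 in fed muscle, where 77.9% were. The knockout arrays were dimmer as a whole, with a median log2 ratio over all genes of -0.16 starved and -0.20 fed, against which the matrix genes, at -0.20 starved and -0.23 fed, stood 0.04 lower in both states. On the probe sets read, the lowest ratio in starved muscle was that of Col15a1 (log2 -0.58), at 48.3 in knockout and 72.4 in control muscle, followed by Postn (-0.50) and Pcolce (-0.49). The highest was that of Thbs1 (0.50), whose other probe set had the opposite sign (-0.43). In fed muscle Col6a2 (-0.51), Col12a1 (-0.47) and Serpinh1 (-0.46) followed Thbs1 at the low end, and Plod2 (0.54) and Ccn2 (0.24) stood at the high end. The other Plod2 probe set had the opposite sign, at 19.6 in fed knockout and 42.0 in fed control muscle (-1.10). With the arrays scaled to a common median, 10.1% of all genes were higher and 8.32% lower in the knockout starved, and 4.78% were higher and 7.19% lower fed. That scaling moved Thbs1 in starved and Plod2 in fed muscle past 1.5-fold higher in the knockout and moved Thbs1 in fed muscle inside it, on the brighter probe set of each gene.

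**Figure D4:**
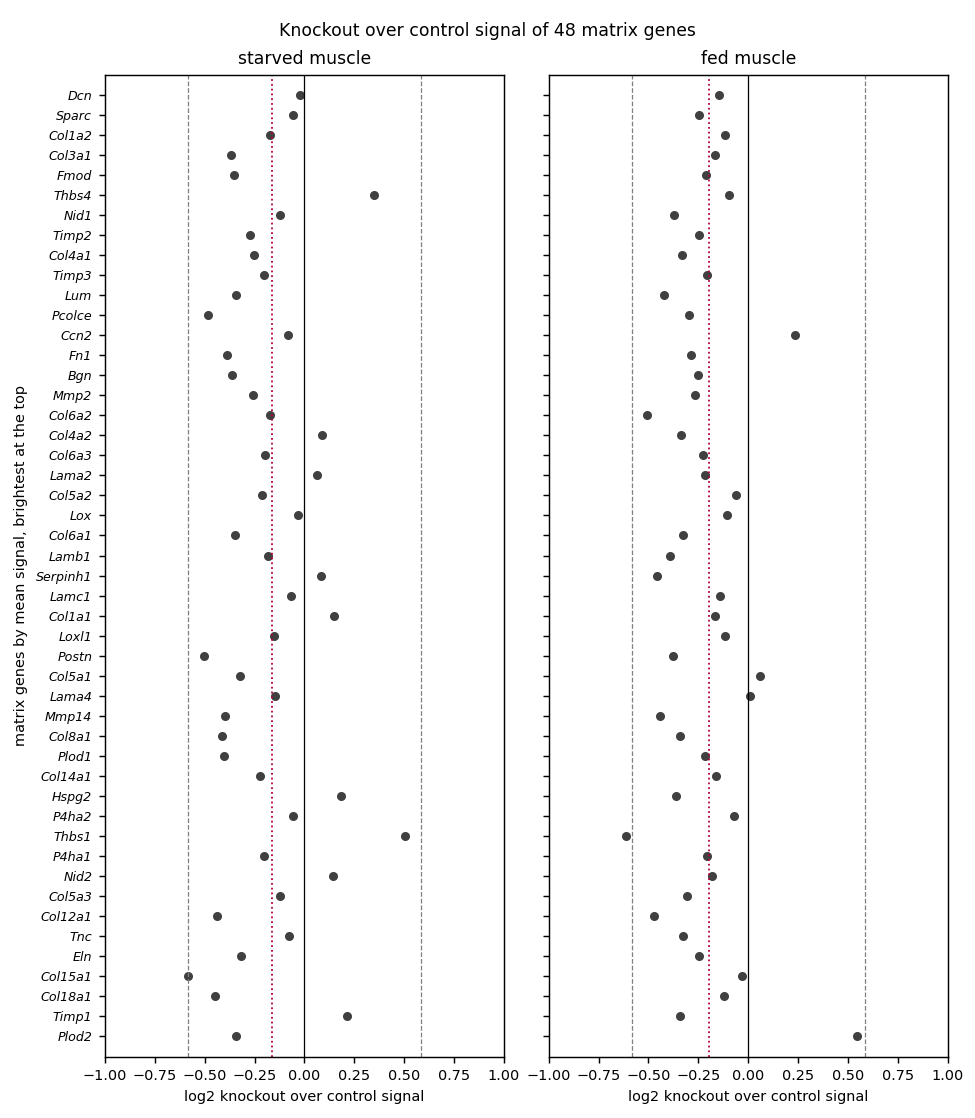
Log2 ratio of knockout over control signal (x axis) of 48 matrix genes in starved (left) and fed (right) muscle, ordered by mean signal. Dashed lines mark 1.5-fold and the dotted line the median over all genes, -0.16 starved and -0.20 fed. Nearly all points lie inside the dashed lines, with Thbs1 in fed muscle beyond them.

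Other matrix genes outside the list were read in the same way. Of all genes, 9.45% fell and 7.36% rose in knockout muscle, 14.2% fell and 9.21% rose in control muscle, and 3.9% fell in both. Of 19 further collagen genes measured, 1 rose in knockout and 2 in control muscle, and 7 fell in knockout and 8 in control muscle, 6 of them in both. The cartilage-type fibril genes Col2a1, Col9a1 and Col11a1 were among those 6, at low signals. Col11a1 was at 39.7 starved and 92.7 fed in knockout muscle and 59.1 starved and 108.2 fed in control muscle. Col17a1, a collagen of epithelial hemidesmosomes, rose in both at signals of 8.9 to 24.4. Of 19 further genes for collagen maturation 2 fell in knockout and 4 in control muscle, and Crtap, a subunit of the prolyl 3-hydroxylase complex, fell in both, with 210.0 starved and 368.4 fed in knockout and 249.5 starved and 394.7 fed in control muscle. Of 30 further proteoglycans and glycoproteins 4 rose and 4 fell in knockout muscle, and 3 rose and 5 fell in control muscle. Ccn1, a relative of Ccn2, rose in both genotypes, at 830.3 starved and 420.8 fed in knockout and 1032.7 starved and 348.5 fed in control muscle. Fbln5, which assembles elastic fibres, rose as well, with 530.0 starved and 314.0 fed in knockout and 659.9 starved and 371.6 fed in control muscle. Of 12 further basement membrane genes 2 fell in each genotype, 1 of them, Egfl6, in both, and 1 rose in knockout muscle. The gene that rose was the dim Lamc3, which fell in control muscle. It was at 30.5 starved and 19.3 fed in knockout and 9.1 starved and 16.7 fed in control muscle.

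Most tendon markers moved with the collagens. Of 8 tendon markers, 5 fell and 1 rose in knockout muscle, 5 fell in control muscle and 4 fell in both. Of all genes, 9.45% fell and 7.36% rose in knockout muscle, 14.2% fell in control muscle and 3.9% fell in both. The medians of the tendon markers were -0.66 in knockout and -0.67 in control muscle. Their summed signal was 3655.9 starved and 6201.9 fed in knockout muscle and 4372.4 starved and 7620.4 fed in control muscle, and Fmod belongs to both lists. Kera, the gene of the tendon and corneal proteoglycan keratocan, was at 136.2 starved and 574.3 fed in knockout muscle and 162.1 starved and 828.6 fed in control muscle. Tnmd, which encodes the tendon cell membrane protein tenomodulin, was at 502.4 starved and 1064.2 fed in knockout muscle and 460.7 starved and 1555.0 fed in control muscle. The 1 tendon marker that rose in knockout muscle was Scx, at low signals. It was at 66.3 starved and 33.1 fed in knockout muscle and 29.5 starved and 42.7 fed in control muscle. None of the 8 was listed at 0. Their part in the fall of the collagens was not tested. Of 8 fibroblast markers outside the list, 2 fell in knockout and 1 in control muscle, where 9.45% and 14.2% of all genes fell. The medians of these markers were -0.16 in knockout and -0.33 in control muscle. Their summed signal was 23181.1 starved and 24785.9 fed in knockout muscle and 25756.8 starved and 26326.3 fed in control muscle. Most of each sum was Gsn, at 15177.3 starved and 15022.7 fed in knockout muscle and 15929.9 starved and 14891.0 fed in control muscle. Starved signals lay below fed signals for 7 of the 8 markers in knockout and 6 in control muscle, where 57.8% and 60.1% of all genes did so. The 9 hair shaft genes all rose in knockout muscle and all fell in control muscle, where 2.19% of all genes changed 1.5-fold in opposite directions. Summed signals of the hair shaft genes were 1843.3 starved and 115.7 fed in knockout and 49.4 starved and 1113.9 fed in control muscle. The 8 epidermal genes summed to 1092.4 starved and 1564.9 fed in knockout and 1226.7 starved and 571.7 fed in control muscle. The part of hair shaft and epidermal RNA in the matrix values was not tested.

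**Figure D5:**
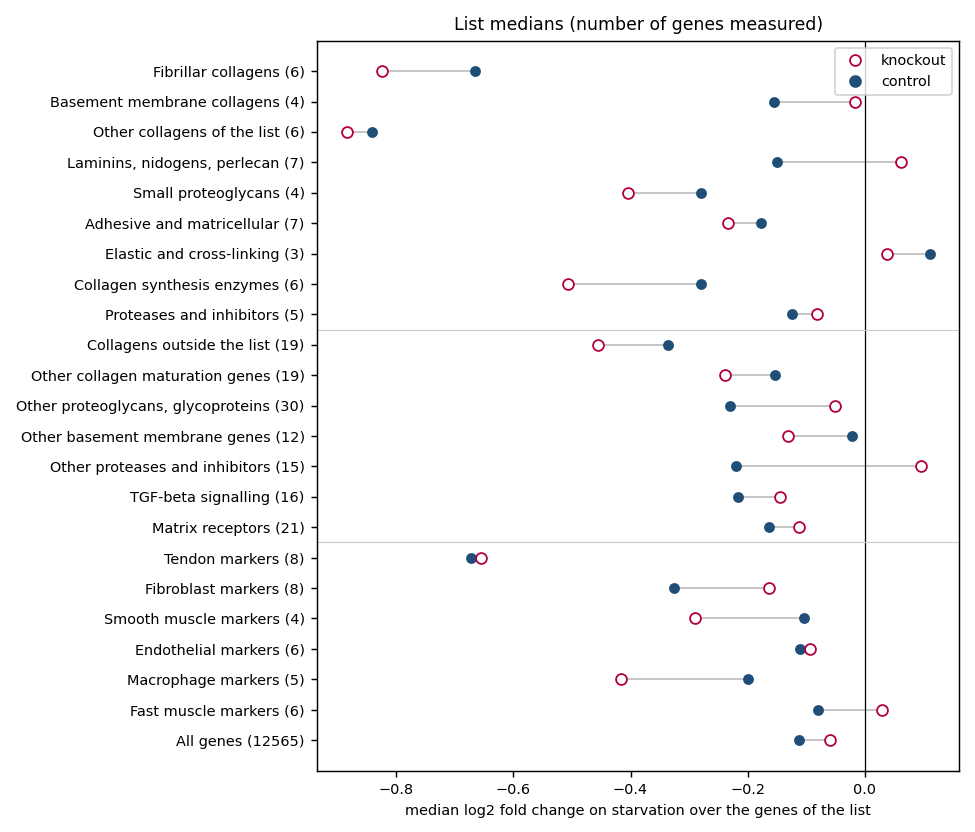
Median log2 ratio of starved over fed signal (x axis) over the measured genes of each list plotted, with open circles for knockout and filled circles for control muscle and the number of genes in parentheses. The fibrillar and other interstitial collagens and the tendon markers lie farthest to the left of the lists plotted, which leave out hair shaft and epidermal genes, and all genes lie at -0.06 in knockout and -0.11 in control muscle.

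The promoters of the genes were searched for short motifs in the RefSeq windows of GRCm38.p6, 250 bases before to 50 after the start. Windows were found for 31 of the 48 genes, 35 in all, and both strands were read. The forkhead core GTAAACA occurred in 1 window, that of Col6a1, which is 2.86% of them against 3.65% of all 32851 windows. The GC box GGGCGG occurred in 74.3% against 35.7%, the Smad box CAGAC in 54.3% against 49.6%, CCAAT in 34.3% against 37.4%, TATAAA in 17.1% against 13.6% and the AP-1 site TGACTCA in 2.86% against 5.2%. A match describes the letters of the window and is not a bound site. The following windows are shown because Col1a2, Col3a1 and Pcolce fell in knockout muscle, Pcolce and Col3a1 also in control muscle, while Col4a1 and Col4a2 stayed within 1.5-fold in both genotypes. They read 5′ to 3′ on the strand of the gene, with matches to these motifs on either strand in capitals.
Col1a2 (chr6:4505368-4505667, plus strand): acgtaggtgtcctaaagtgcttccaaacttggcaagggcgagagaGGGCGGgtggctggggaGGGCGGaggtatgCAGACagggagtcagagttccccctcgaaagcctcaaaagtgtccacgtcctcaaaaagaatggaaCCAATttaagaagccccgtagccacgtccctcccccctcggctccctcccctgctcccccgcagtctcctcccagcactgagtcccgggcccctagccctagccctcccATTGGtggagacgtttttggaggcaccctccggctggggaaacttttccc
Col3a1 (chr1:45311288-45311587, plus strand): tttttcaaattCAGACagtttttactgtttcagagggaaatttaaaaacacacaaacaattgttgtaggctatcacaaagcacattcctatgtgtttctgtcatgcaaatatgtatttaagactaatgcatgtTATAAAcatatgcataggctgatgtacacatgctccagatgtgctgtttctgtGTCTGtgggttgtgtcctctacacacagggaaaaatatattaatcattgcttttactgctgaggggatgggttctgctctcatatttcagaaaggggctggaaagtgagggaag
Pcolce (chr5:137611355-137611654, minus strand): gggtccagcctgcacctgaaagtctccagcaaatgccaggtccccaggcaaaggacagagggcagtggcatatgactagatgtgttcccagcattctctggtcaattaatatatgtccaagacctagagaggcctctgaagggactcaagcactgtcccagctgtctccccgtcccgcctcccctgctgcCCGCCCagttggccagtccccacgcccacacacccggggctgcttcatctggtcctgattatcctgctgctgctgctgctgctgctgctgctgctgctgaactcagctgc
Col4a1 (chr8:11312777-11313076, minus strand): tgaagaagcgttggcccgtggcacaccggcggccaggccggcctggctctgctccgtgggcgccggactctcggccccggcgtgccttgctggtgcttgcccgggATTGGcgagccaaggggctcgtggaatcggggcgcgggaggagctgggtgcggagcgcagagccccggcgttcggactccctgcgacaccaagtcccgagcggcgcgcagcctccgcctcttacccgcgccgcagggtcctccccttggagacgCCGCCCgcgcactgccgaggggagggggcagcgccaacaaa
Col4a2 (chr8:11312555-11312854, plus strand): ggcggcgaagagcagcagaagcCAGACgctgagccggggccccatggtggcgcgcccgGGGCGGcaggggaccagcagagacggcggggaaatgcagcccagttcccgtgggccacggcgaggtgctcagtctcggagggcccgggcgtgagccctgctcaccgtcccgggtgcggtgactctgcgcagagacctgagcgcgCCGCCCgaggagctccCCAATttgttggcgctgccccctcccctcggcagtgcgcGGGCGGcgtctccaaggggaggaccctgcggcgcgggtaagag
Col4a1 and Col4a2 are read in opposite directions from neighbouring starts, and their windows share 78 bases. The Col4a1 and Col4a2 windows both hold a CCAAT box and a GC box, the Col3a1 window holds a TATA box and no GC box, and the Col1a2 window holds GC boxes and CCAAT boxes.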

How the data were processed

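The authors pooled RNA per condition, hybridized it to Affymetrix mouse expression arrays (430 2.0) and summarized the probes into MAS 5.0 signals, and the deposited values are these intensities on a linear scale. Expression Console from Affymetrix is named in the submitters' processing notes. The scaling target is not given in the sources used here, and no detection call was used.

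The 45037 probe sets took their genes from the platform annotation, which gives 1 gene for 34945 and several for 932, and does not name 9160. Symbols were updated by gene identifier for 34741 probe sets with the RefSeq table of GRCm38.p6. Probe sets under the 50th percentile of every one of the 4 arrays were left out, and of several for a gene the brightest on average was read. A signal of 0 was set to 0.1. Ratios were computed in Python 3.11.15 (pandas 2.3.3, numpy 2.4.6) and drawn with matplotlib 3.10.9, after the counting of changed genes had been checked on simulated signals. A ratio of 1.5 was the threshold. With 1 array per condition there is no SD and no p-value, and precision is limited by the number of arrays.

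The matrix genes and the other lists were chosen with earlier results of these data known. Genes named were up to 4 of each role with the largest change on starvation, the 10 with the largest difference between responses, the 5 highest and lowest in knockout over control muscle, and up to 2 of each other list. Genes named beyond these were chosen after their values were seen. The alternatives were 3 array scalings, 2 filters, the mean over probe sets, an offset of 16 and thresholds of 2 and 1.3. Member proteins were not analysed here.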

Additional observations from a re-analysis of the deposited data

How the results depend on the processing

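The median log2 changes on starvation kept their direction under every alternative, while which few genes passed 1.5-fold in knockout over control depended on the alternative. The median log2 ratio of knockout over control was -0.0157, -0.0144 and -0.017 in starved muscle, and -0.0907, -0.0461 and -0.0515 in fed muscle, after scaling the arrays to a common median, to a common trimmed mean and by quantiles. Under each of these scalings 1 gene was higher in the knockout starved, 1 was higher fed and 0 were lower fed. Of all genes, 10.1% to 10.2% were higher starved, 4.78% to 5.36% were higher fed and 6.26% to 7.19% were lower fed. With the mean over probe sets 3 were lower starved and 1 was higher fed, where 15.0% and 3.9% of all genes were. With an offset of 16, 0 were lower fed, where 6.6% of all genes were. With the 75th percentile filter 1 response differed between the genotypes instead of 2.

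At a threshold of 2, the number that rose in knockout muscle was 2, the number that fell was 6 in knockout and 6 in control muscle and 3 in both, 0 were lower in fed knockout muscle and 1 response differed. At that threshold 3.29% of all genes rose and 3.21% fell in knockout muscle, and 4.81% fell in control muscle. In fed knockout muscle 3.55% of all genes were lower. At a threshold of 1.3, 1 gene was higher and 9 were lower in the knockout starved, 1 was higher and 7 were lower fed, and 8 responses differed. Of all genes, 10.6% were higher and 28.1% lower in the knockout starved, and 5.73% were higher and 24.4% lower fed. Of 41 changes of a gene past 1.5-fold, 34 stayed past it under every scaling, filter and offset and with the mean over probe sets. With the mean over probe sets, Hspg2 (0.34), Col12a1 (-0.44) and Col14a1 (-0.55) on starvation in knockout muscle, Col12a1 on starvation in control muscle (-0.05) and Thbs1 in fed knockout over control (-0.40) were inside it. The starvation changes of Nid2 in knockout muscle (-0.56 to -0.55 under the 3 scalings and the offset), Col12a1 in knockout muscle (-0.58 by quantiles, -0.57 with the offset) and Loxl1 in control muscle (-0.58 by quantiles) also were, as was Thbs1 in fed knockout over control (-0.51 to -0.40 under the 3 scalings and the offset). None of these 41 changed sign, whereas values near 0, such as Col4a1 in control muscle and Dcn in knockout muscle, did. No paired analysis was possible because each condition has 1 pooled array. Signal limits the dim genes, since probe sets of the same gene scattered by an SD of 0.69 per probe set at mean signals of 8.4 to 43.6, on starvation in knockout muscle.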

Other observations

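Genes that signal to or from the matrix were read as values. Of all genes, 9.45% fell and 7.36% rose in knockout muscle, and 14.2% fell and 9.21% rose in control muscle. Of 16 TGF-beta signalling genes, 1 fell and none rose in knockout muscle, and 4 fell and 1 rose in control muscle, with medians of -0.15 in knockout and -0.22 in control muscle. Smad3, a transducer of TGF-beta that acts on collagen genes, was at 575.2 starved and 793.1 fed in knockout muscle and 306.9 starved and 869.0 fed in control muscle. Tgfb2, a ligand, was at 352.6 starved and 480.4 fed in knockout muscle and 297.0 starved and 563.0 fed in control muscle. Neither gene reached 1.5-fold in knockout muscle, and whether the responses of these genes differ between mice was not tested.

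Of 21 matrix receptors, 1 fell in knockout and 2 in control muscle. Cd44, the hyaluronan receptor, fell in both, at 136.9 starved and 215.1 fed in knockout muscle and 167.1 starved and 309.9 fed in control muscle. Of 15 further proteases and inhibitors none changed 1.5-fold in knockout muscle, and 1 rose and 2 fell in control muscle. Plau, the urokinase gene, was at 202.7 starved and 233.1 fed in knockout muscle and 161.7 starved and 280.1 fed in control muscle.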
